A study of Mus musculus with 2 samples.

Results

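The Hox genes of the mouse were followed through single-cell libraries of uterus from animals given doxorubicin with anti-Müllerian hormone or doxorubicin alone. The members are all gene symbols made of Hox, a cluster letter from a to d and a paralogue number, which gave 39 of the 32285 annotated genes. They held 61569 unique molecular identifiers (UMIs, 1 per captured transcript molecule) in the DOX plus AMH library and 81434 in the DOX library. Both came to 629 CPM (UMIs of the genes scaled to a total of 1000000), and 37 of the 39 genes had at least 1 UMI in each library. Hoxb13 and Hoxc12 had 0 UMIs in both.

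Hox genes encode homeodomain transcription factors that lie in 4 clusters, and the members with the same number in different clusters are paralogues. Within a cluster, genes of low number are switched on early and towards the head of the embryo, and genes of high number later and towards the tail. In the developing female tract Hoxa9 marks the future oviduct, Hoxa10 and Hoxa11 the uterus and Hoxa13 the cervix and upper vagina, and the pattern is kept in adult tissue. Mouse mutants of Hoxa10 or Hoxa11 fail to support implantation.

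The DOX plus AMH group received doxorubicin, an anthracycline that damages DNA, at 3 mg/kg with anti-Müllerian hormone, the TGF-beta family hormone that removes the Müllerian ducts in male embryos, at 0.75 mg/kg. The DOX group received doxorubicin at 3 mg/kg alone. Uteri were taken 4 h after treatment, those of 5 animals were pooled in each group, and 1 droplet library with 3' capture was made per pool. Strain, age and genotype of these animals are not given in the labels, and the series text that names 2 weekly doses and postnatal day 25 refers to bulk sequencing. With 1 library per group no test between groups was possible, and all intervals are 95% intervals of counting error only.

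After filters on depth, genes, mitochondrial share and doublets, 6738 cells remained in DOX plus AMH and 7431 in DOX, with medians of 10100.5 and 13765 UMIs per cell. Cells were assigned to classes by fixed marker genes, and 7 classes with at least 50 cells in both libraries were compared. These were stromal cells (3685 in DOX plus AMH and 5014 in DOX), smooth muscle (1142 and 960), columnar epithelium (175 and 313), vascular endothelium (233 and 153), pericytes (170 and 99), mesothelium (98 and 68), and macrophages or monocytes (197 and 287). In each compared class all its markers, or all but 1, were higher than in any other compared class, in both libraries. The libraries differed in makeup: 412 cells of DOX plus AMH and 6 of DOX were gated as squamous epithelium, a cell type of the cervix and vagina and not of the uterine horn. The labels name the uterus and do not say which parts of the tract were dissected, so treatment and region cannot be told apart in any ratio between the libraries. They shared 17 cell barcodes, of which 13 were kept in both.

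By the GENCODE annotation of mm10, the Hoxa cluster (11 genes) runs on the minus strand of chromosome 6 from 52155590 to 52260880. The Hoxb cluster (10 genes) lies on the plus strand of chromosome 11 from 96194316 to 96368256. The Hoxc cluster (9 genes) lies on the plus strand of chromosome 15 from 102921103 to 103036852, and the Hoxd cluster (9 genes) on the plus strand of chromosome 2 from 74668310 to 74765142. In this annotation 11 of the 39 genes overlap another member on the same strand. Hoxa3 spans Hoxa4, Hoxa5 and Hoxa6. Hoxc5 spans Hoxc6, Hoxc8 and Hoxc9 and overlaps Hoxc10 in part, and Hoxd3 overlaps Hoxd4. How UMIs were shared among these genes is uncertain.

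4 promoters are shown because their genes carry the results that follow. Hoxa5 (chr6:52204538-52204837, minus strand) differed most between the libraries within the Hoxa cluster. Hoxa10 (chr6:52240805-52241104, minus strand) was the highest Hox gene of the tissue. Hoxa13 (chr6:52260831-52261130, minus strand) was almost without UMIs, and Hoxb8 (chr11:96281655-96281954, plus strand) was high in the epithelium. Each runs from 250 bases before to 50 bases after the start of transcription, 5′ to 3′, from RefSeq on GRCm38.p6, with CpG dinucleotides in capitals.
Hoxa5: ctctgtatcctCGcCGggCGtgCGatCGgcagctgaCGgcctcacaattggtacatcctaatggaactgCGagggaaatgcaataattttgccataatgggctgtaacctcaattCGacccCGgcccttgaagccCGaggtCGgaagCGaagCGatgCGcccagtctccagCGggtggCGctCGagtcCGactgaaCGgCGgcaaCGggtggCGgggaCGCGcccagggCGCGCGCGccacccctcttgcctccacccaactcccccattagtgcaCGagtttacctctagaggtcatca
Hoxa10: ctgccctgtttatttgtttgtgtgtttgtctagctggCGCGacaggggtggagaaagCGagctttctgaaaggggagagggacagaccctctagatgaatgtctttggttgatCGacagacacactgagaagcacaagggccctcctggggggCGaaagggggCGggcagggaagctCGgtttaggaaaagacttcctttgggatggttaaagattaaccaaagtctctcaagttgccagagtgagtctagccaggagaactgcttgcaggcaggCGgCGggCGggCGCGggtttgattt
Hoxa13: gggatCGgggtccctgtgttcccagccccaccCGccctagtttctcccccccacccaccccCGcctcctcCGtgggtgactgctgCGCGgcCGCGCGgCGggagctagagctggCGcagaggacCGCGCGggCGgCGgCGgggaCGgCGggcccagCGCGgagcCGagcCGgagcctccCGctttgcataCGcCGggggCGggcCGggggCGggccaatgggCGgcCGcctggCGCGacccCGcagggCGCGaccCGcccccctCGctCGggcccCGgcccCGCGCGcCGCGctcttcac
Hoxb8: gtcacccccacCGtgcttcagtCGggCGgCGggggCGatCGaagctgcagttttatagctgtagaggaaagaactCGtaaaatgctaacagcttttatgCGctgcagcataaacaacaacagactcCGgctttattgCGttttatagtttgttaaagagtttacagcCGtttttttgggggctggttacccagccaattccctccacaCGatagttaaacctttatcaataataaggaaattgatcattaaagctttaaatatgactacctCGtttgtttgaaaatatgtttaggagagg
The windows hold 29 CpG dinucleotides for Hoxa5, 12 for Hoxa10, 45 for Hoxa13 and 13 for Hoxb8. The sequence table had 24 entries for 22 of the 39 Hox genes, with a median of 14.5 CpG, against 7 over all 32851 promoters. The letters TGATNNAT, searched on both strands as the core of a joint Pbx and Hox binding motif, occurred in 4 of the 24 Hox entries (16.7%), those of Hoxa2, Hoxb1, Hoxb8 and Hoxd11, and in 8.85% of all promoters.

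Levels are given as CPM, the UMIs of a gene scaled to all UMIs of its class. A 3' UMI marks a molecule whatever its length, so levels of different genes were set side by side without a length correction. Macrophages, a class that should lack the Hox pattern of the tract, served as the background of free RNA. They held 59.9 CPM of all Hox genes together in DOX plus AMH and 62.7 CPM in DOX. Hoxa10 alone stood at 15.6 CPM in macrophages of DOX plus AMH and 19.8 CPM in those of DOX, and values of a gene at or under its macrophage level are not told apart from background. Summed over all Hox genes, the stromal level was 808 CPM in DOX plus AMH and 700 CPM in DOX, and the smooth muscle level 726 CPM in DOX plus AMH and 610 CPM in DOX. The other compared classes lay between 491 and 612 CPM in DOX plus AMH and between 517 and 598 CPM in DOX.

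28 of the 39 members reached 5 CPM in at least 1 compared class. For 25 of these the class with the highest level was the same in both libraries, and the exceptions were Hoxa3, Hoxd3 and Hoxc4. The columnar epithelium was highest for 7 members in both libraries, all of the Hoxb cluster. The mesothelium was highest for 8 members in DOX plus AMH and 10 in DOX, and the stroma for 4 and 5.

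**Figure D1:**
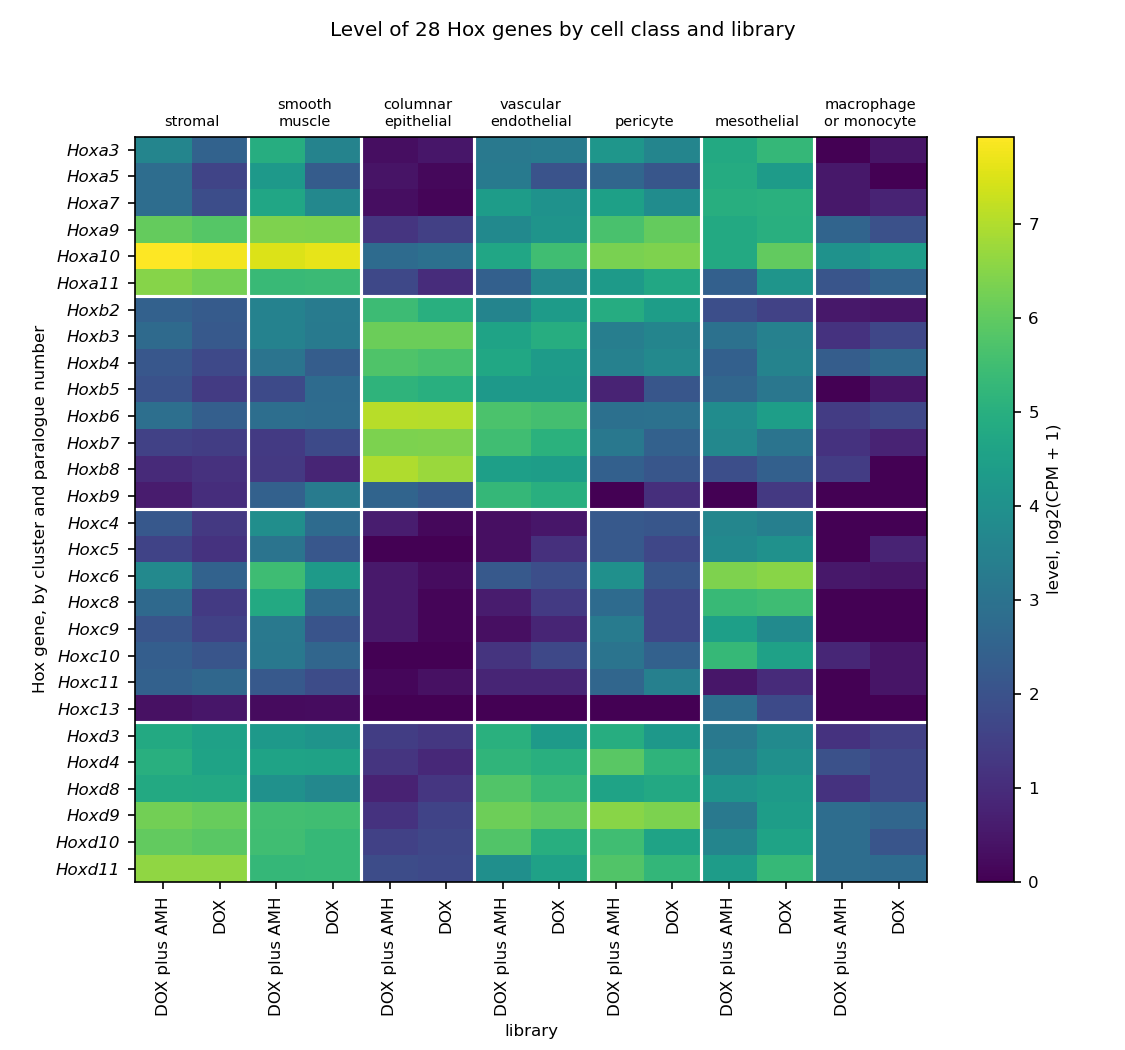
Level of the 28 Hox genes that reached 5 CPM, as log2(CPM + 1), by gene (rows, ordered by cluster and paralogue number) and by class and library (columns). Hoxb genes were high in columnar epithelium, Hoxa9 to Hoxa11 and Hoxd9 to Hoxd11 in stroma and smooth muscle, and Hoxc6 to Hoxc10 in mesothelium, in both libraries.

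Stromal cells, the fibroblasts of endometrium and outer wall, were dominated by paralogues 9 to 11. These gave 80.0% of their Hox UMIs in DOX plus AMH (interval 79.6% to 80.5%) and 84.1% in DOX (83.8% to 84.5%). The Hoxa cluster held 52.5% of stromal Hox UMIs in DOX plus AMH and 52.2% in DOX, and the Hoxd cluster 39.9% in DOX plus AMH and 42.2% in DOX. Hoxa10 was the highest, at 243 CPM in DOX plus AMH and 222 CPM in DOX. Hoxd11, known for limb and kidney patterning with Hoxa11, followed at 97.2 CPM in DOX plus AMH and 96.9 CPM in DOX. Hoxa11 stood at 88.9 CPM in DOX plus AMH and 76.0 CPM in DOX, and Hoxd9 at 74.6 and 67.3 CPM. Hoxa9 stood at 66.1 CPM in DOX plus AMH and 56.6 CPM in DOX, and Hoxd10 at 63.9 and 58.2 CPM. All Hoxb genes were at or under 6.39 CPM in stroma of both libraries. With each cell thinned to 5000 UMIs, Hoxa10 was found in 62.9% of stromal cells of DOX plus AMH (79.5% unthinned) and 59.2% of those of DOX (82.9% unthinned). In macrophages thinned alike the shares were 3.77% in DOX plus AMH and 4.72% in DOX.

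In smooth muscle, the class that holds the contractile cells of the myometrium, Hoxa10 was also highest, at 180 CPM in DOX plus AMH and 197 CPM in DOX. Hoxa9 followed at 83.7 CPM in DOX plus AMH and 80.8 CPM in DOX, and Hoxd9 at 45.5 and 43.8 CPM. Hoxa11, at 40.3 CPM in DOX plus AMH and 41.3 CPM in DOX, and Hoxd11, at 38.2 and 38.5 CPM, lay below Hoxa9 here and above it in stroma. Paralogues 9 to 11 gave 62.9% of smooth muscle Hox UMIs in DOX plus AMH and 75.3% in DOX. The Hoxc cluster gave 15.4% in DOX plus AMH (interval 14.6% to 16.2%) and 7.38% in DOX (6.75% to 8.04%), with Hoxc6 at 43.6 CPM in DOX plus AMH and 18.9 CPM in DOX.

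The columnar epithelium, which lines the lumen and glands, drew on another cluster. Hoxb genes gave 96.1% of its Hox UMIs in DOX plus AMH (interval 95.6% to 96.7%) and 95.9% in DOX (95.4% to 96.3%). Hoxb6 was highest, at 133 CPM in both libraries. Hoxb8, a gene also used in spinal cord and blood lineages, stood at 125 CPM in DOX plus AMH and 106 CPM in DOX. Hoxb7 stood at 81.8 CPM in DOX plus AMH and 84.2 CPM in DOX, and Hoxb3 at 70.2 and 70.5 CPM. Hoxb4, Hoxb2 and Hoxb5 followed, at 53.2, 42.7 and 34.8 CPM in DOX plus AMH and 48.3, 30.8 and 31.0 CPM in DOX. Hoxb9 was at 4.87 CPM in DOX plus AMH and 3.74 CPM in DOX. Hoxa10 was at 5.89 CPM in epithelium of DOX plus AMH and 6.60 CPM in that of DOX, under its level in macrophages.

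Cells gated as squamous epithelium were frequent in DOX plus AMH alone and gave no comparison between groups. Their Hox total was 282 CPM, and 90.2% of it came from the Hoxb cluster (interval 89.1% to 91.2%). Hoxb8 at 52.7 CPM, Hoxb6 at 49.9 CPM and Hoxb7 at 47.7 CPM led there, in the same set of 3 that led the columnar epithelium. None of the 412 squamous cells held a UMI of a paralogue 13 gene, which allows a share of up to 0.728%.

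**Figure D2:**
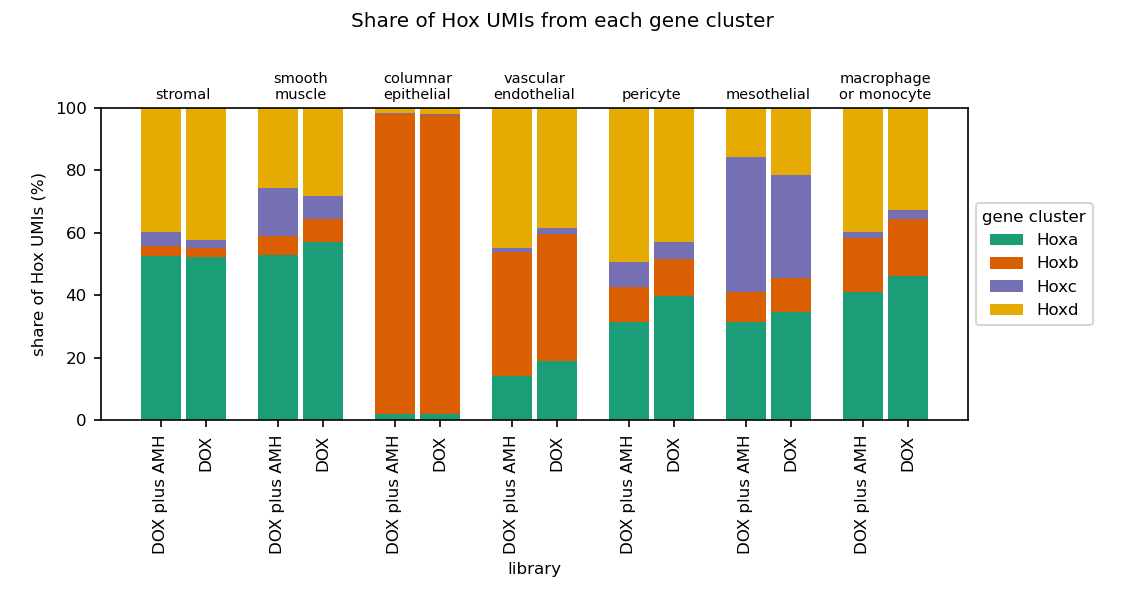
Share of all Hox UMIs of a class (vertical axis, percent) that came from the Hoxa, Hoxb, Hoxc and Hoxd clusters, with a stacked bar for each class and library. Columnar epithelium was 96.1% Hoxb in DOX plus AMH and 95.9% in DOX, while the Hoxc share was highest in mesothelium.

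Vascular endothelium combined the Hoxb and Hoxd clusters. The Hoxd cluster gave 44.9% of its Hox UMIs in DOX plus AMH and 38.5% in DOX, and the Hoxb cluster 39.8% and 40.8%. Hoxd9 stood at 71.8 CPM in DOX plus AMH and 62.0 CPM in DOX, and Hoxb6 at 50.4 and 46.1 CPM. Hoxb9, at 38.0 CPM in DOX plus AMH and 31.4 CPM in DOX, was at or under 8.79 CPM in the other compared classes of both libraries. Hoxa11 was at 4.42 CPM in DOX plus AMH and 12.4 CPM in DOX, against 3.28 CPM in macrophages of DOX plus AMH and 4.77 CPM in those of DOX.

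Pericytes, the mural cells of small vessels, were led by Hoxd9 at 90.8 CPM in DOX plus AMH and 81.7 CPM in DOX. Hoxa10 stood at 79.9 CPM in pericytes of DOX plus AMH and 82.8 CPM in those of DOX. Hoxd4, a gene of hindbrain and cervical vertebrae, reached 59.3 CPM in DOX plus AMH and 34.7 CPM in DOX. Pericytes were the highest class for it in both libraries. In the pericyte class the 6 stromal markers summed to 3512 CPM in DOX plus AMH and 5638 CPM in DOX. The 7 smooth muscle markers summed to 2274 and 1961 CPM, and the 7 pericyte markers to 4423 and 3544 CPM. The part of stromal and smooth muscle RNA in the pericyte Hox levels and ratios was not tested.

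The mesothelium, the outer cover of the organ, had the largest Hoxc share of the compared classes. The Hoxc cluster gave 43.5% of its Hox UMIs in DOX plus AMH (interval 40.7% to 46.3%) and 33.0% in DOX (30.4% to 35.8%). Hoxc6 led at 82.5 CPM in DOX plus AMH and 90.8 CPM in DOX, then Hoxc8 at 39.7 and 43.7 CPM. Hoxc10, known for lumbar motor neurons, stood at 38.9 CPM in DOX plus AMH and 22.1 CPM in DOX. Hoxa7 stood at 30.5 CPM in DOX plus AMH and 31.9 CPM in DOX. In the mesothelial class the 6 stromal markers summed to 9559 CPM in DOX plus AMH and 11866 CPM in DOX. The 8 columnar epithelial markers summed to 829 and 1041 CPM, and the 7 mesothelial markers to 2195 and 2862 CPM. The part of stromal and epithelial RNA in the mesothelial Hox levels and ratios was not tested.

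Along the paralogue number, the classes therefore had different peaks. The summed level peaked at paralogue 10 in stroma and smooth muscle, at paralogue 6 in columnar epithelium and at paralogue 9 in vascular endothelium and pericytes, in both libraries. In mesothelium it was highest at paralogue 6 and next at paralogue 10, again in both, with 228 and 224 UMIs in DOX. The counting intervals of these shares of Hox UMIs overlapped in DOX mesothelium (16.5% to 21.0% and 16.2% to 20.6%). They also overlapped for paralogues 9 and 10 in pericytes of both libraries, and for paralogues 6 and 8 in columnar epithelium of DOX plus AMH. The order of these paralogues is therefore not settled.

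**Figure D3:**
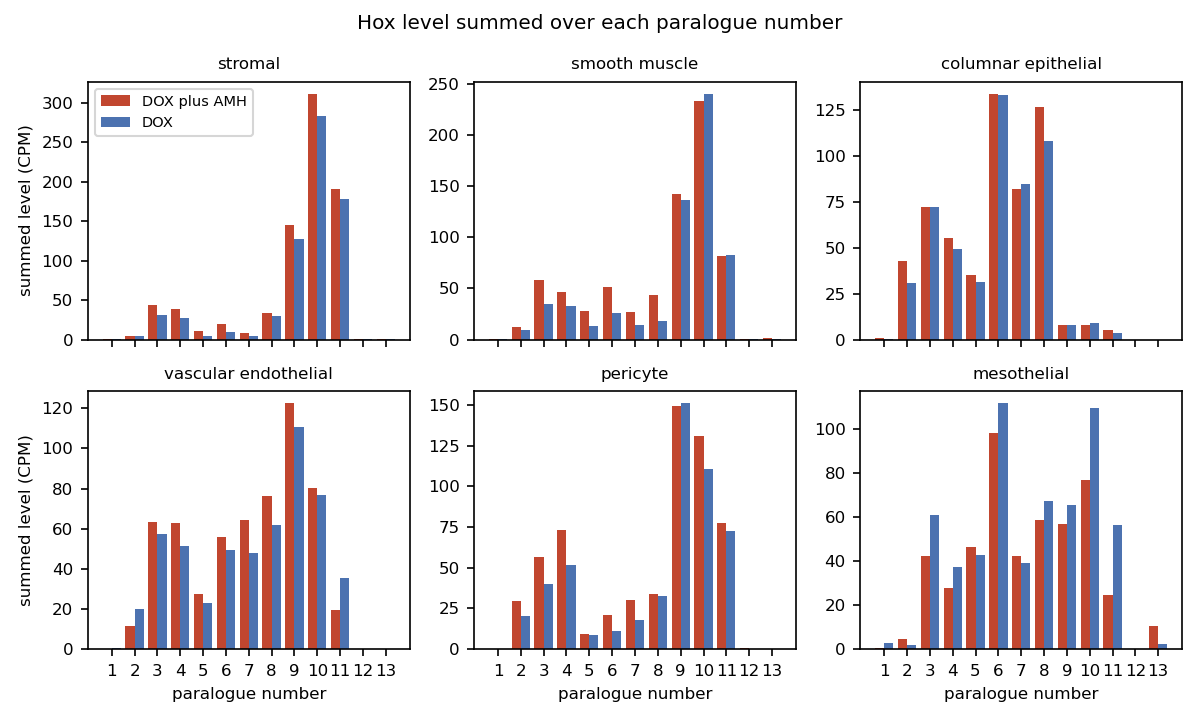
Level summed over all members of a paralogue number (vertical axis, CPM, linear from 0) against paralogue number 1 to 13 in 6 classes, with DOX plus AMH and DOX as paired bars. The bars of paralogues 12 and 13 are at or near 0 apart from paralogue 13 in mesothelium, and those of paralogues 3 to 8 are taller in DOX plus AMH than in DOX in smooth muscle.

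The most caudal genes were nearly absent. Hoxb13, a gene of the prostate and tail bud, and Hoxc12 had no UMI. Hoxa13 had 13 UMIs over 3685 stromal cells of DOX plus AMH and 15 over 5014 of DOX, and at most 2 in a cell. Hoxd13, which shapes the digits together with Hoxa13, had 9 UMIs in stroma of DOX plus AMH and 5 in that of DOX. Hoxd12 had 5 and 9 UMIs there. A UMI of any paralogue 13 gene was seen in 0.651% of stromal cells of DOX plus AMH (interval 0.418% to 0.968%) and 0.818% of those of DOX (0.587% to 1.11%).

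At 2000 UMIs per cell these shares were 0.137% in DOX plus AMH (31 shallower cells left out) and 0.101% in DOX (73 left out). No macrophage held such a UMI, 0 of 197 in DOX plus AMH and 0 of 287 in DOX, which allows shares of up to 1.52% and 1.05%. Median depths of the macrophages were 10550 UMIs in DOX plus AMH and 7845 UMIs in DOX, against 10205 and 14744.5 UMIs in stroma. With so few macrophages these limits exceed the stromal shares whatever the background is, so the stromal shares could not be set against it.

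The mesothelium held the largest level of a caudal gene. Hoxc13, a gene of hair and nails, had 16 UMIs in 7 of 98 mesothelial cells of DOX plus AMH and 5 UMIs in 5 of 68 of DOX. That is 6.35 CPM in DOX plus AMH and 2.45 CPM in DOX. All 7 Hoxd13 UMIs of mesothelium lay in 1 cell of DOX plus AMH.

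In all 11 members stayed under 5 CPM in every compared class, at or under 2.94 CPM. Among them were Hoxa2, Hoxa4, Hoxa6, Hoxb1 and Hoxd1, with Hoxd12, Hoxa13, Hoxd13, Hoxb13 and Hoxc12. Hoxb1 is a hindbrain gene, and Hoxa2 patterns the second pharyngeal arch.

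Whether Hox levels differed between DOX plus AMH and DOX was described for members with at least 50 UMIs over both libraries in a class. In stromal cells 27 members were measured, and 10 were at least 1.5-fold higher in DOX plus AMH. Over all 16254 genes measured in stroma 11.0% were that much higher. 1 of the 27 members was at least 1.5-fold lower, against 4.63% of all genes. The median log2 ratio was 0.37 over the members and 0.15 over all genes. In smooth muscle 25 members were measured, with 10 at least 1.5-fold higher, against 8.35% of 12668 genes. 2 of the 25 were lower, against 5.41% of genes, and the medians were 0.30 over the members and 0.12 over all genes. 8 members were higher in both classes, which is 80% of each list. Of the other genes measured in both classes 321 were higher in both, 41.4% of those higher in stroma and 31.5% of those higher in smooth muscle. Both classes come from the same 2 libraries.

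The higher members were low-numbered Hoxa genes and most of the Hoxc cluster. In smooth muscle Hoxc8, a gene of trunk skeleton and limb-level motor neurons, stood at 27.0 CPM in DOX plus AMH (313 UMIs) and 5.67 CPM in DOX (60 UMIs), a log2 ratio of 2.25 (interval 1.85 to 2.68). In stroma Hoxc8 stood at 5.56 CPM in DOX plus AMH and 1.54 CPM in DOX, a log2 ratio of 1.86 (1.53 to 2.19). Hoxa5, needed for lung and neck vertebrae, stood at 18.7 CPM in smooth muscle of DOX plus AMH and 3.97 CPM in that of DOX, a log2 ratio of 2.24 (1.76 to 2.75). Its stromal levels were 6.07 CPM in DOX plus AMH and 2.09 CPM in DOX, with a log2 ratio of 1.54 (1.25 to 1.83).

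Hoxc6, a gene of the forelimb level, stood at 43.6 CPM in smooth muscle of DOX plus AMH and 18.9 CPM in that of DOX (log2 ratio 1.20). In stroma it stood at 12.3 CPM in DOX plus AMH and 4.64 CPM in DOX (1.40). Hoxa3, needed for thymus and parathyroid, stood at 29.7 CPM in smooth muscle of DOX plus AMH and 10.6 CPM in that of DOX (1.49), and at 11.1 and 4.59 CPM in stroma (1.28). Hoxa7 stood at 25.0 CPM in smooth muscle of DOX plus AMH and 12.0 CPM in that of DOX (1.06), and at 6.15 and 2.63 CPM in stroma (1.22). Hoxc4, Hoxc5 and Hoxc9 had log2 ratios of 1.25, 1.09 and 1.37 in smooth muscle and of 1.23, 0.68 and 0.80 in stroma.

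Over all cells of both classes the Hoxa cluster divided by paralogue number, while the Hoxc cluster did not divide cleanly. In the Hoxa cluster all 3 measured members of paralogues 1 to 8 were at least 1.5-fold higher in DOX plus AMH in both classes. None of the 3 measured Hoxa members of paralogues 9 to 13 was. Over all genes 11.0% were that much higher in stroma and 8.35% in smooth muscle, shares from which 0 of 3 is not told apart. Hoxa9, Hoxa10 and Hoxa11 had log2 ratios of 0.22, 0.13 and 0.23 in stroma and of 0.05, -0.12 and -0.04 in smooth muscle. In the Hoxc cluster all 4 measured members of paralogues 1 to 8 were higher in both classes. Of its 3 measured members of paralogues 9 to 13, 1 was in stroma and 2 were in smooth muscle. Hoxc10 had log2 ratios of 0.37 in stroma and 0.63 in smooth muscle, and Hoxc11 of -0.24 and 0.51.

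Of the 6 measured members of the Hoxd cluster 0 were 1.5-fold apart over all cells of either class, low numbers included. Over all genes 11.0% were higher and 4.63% lower in stroma, and 8.35% and 5.41% in smooth muscle. With 6 genes a count of 0 is not told apart from these shares. Small ratios depend on the scaling. With TMM scaling every log2 ratio fell by 0.19 in stroma and by 0.11 in smooth muscle. Stromal values under 0.19 then changed sign, among them those of Hoxa10 (-0.06), Hoxd9 (-0.04) and Hoxd11 (-0.18), as did smooth muscle values under 0.11, among them those of Hoxa9 (-0.06) and Hoxd9 (-0.05). Hoxb3 (0.44) and Hoxc5 (0.49) in stroma and Hoxc10 (0.52) in smooth muscle were then no longer 1.5-fold apart. Hoxd3, Hoxd4 and Hoxd8 had log2 ratios of 0.30, 0.40 and 0.03 in stroma and of 0.20, 0.03 and 0.35 in smooth muscle. Hoxd9, Hoxd10 and Hoxd11 had 0.15, 0.13 and 0.00 in stroma and 0.05, 0.21 and -0.01 in smooth muscle.

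The Hoxb cluster was mixed. In stroma Hoxb5, a gene of the enteric nervous system and lung, was higher at 2.98 CPM in DOX plus AMH and 1.59 CPM in DOX (log2 ratio 0.91), and Hoxb3 at 5.66 and 3.65 CPM (0.63). In smooth muscle Hoxb5 was lower, at 2.41 CPM in DOX plus AMH and 5.76 CPM in DOX (-1.26, interval -1.96 to -0.59). Hoxb9 was lower in both classes, at 4.48 CPM in smooth muscle of DOX plus AMH and 8.79 CPM in that of DOX (-0.97), and at 0.512 and 1.05 CPM in stroma (-1.03). Hoxb4, studied in blood stem cells, had log2 ratios of 0.85 in smooth muscle and 0.58 in stroma. Hoxb2, Hoxb3 and Hoxb6 had 0.23, 0.30 and 0.08 in smooth muscle, and Hoxb2, Hoxb6, Hoxb7 and Hoxb8 had 0.23, 0.56, 0.16 and -0.34 in stroma.

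**Figure D4:**
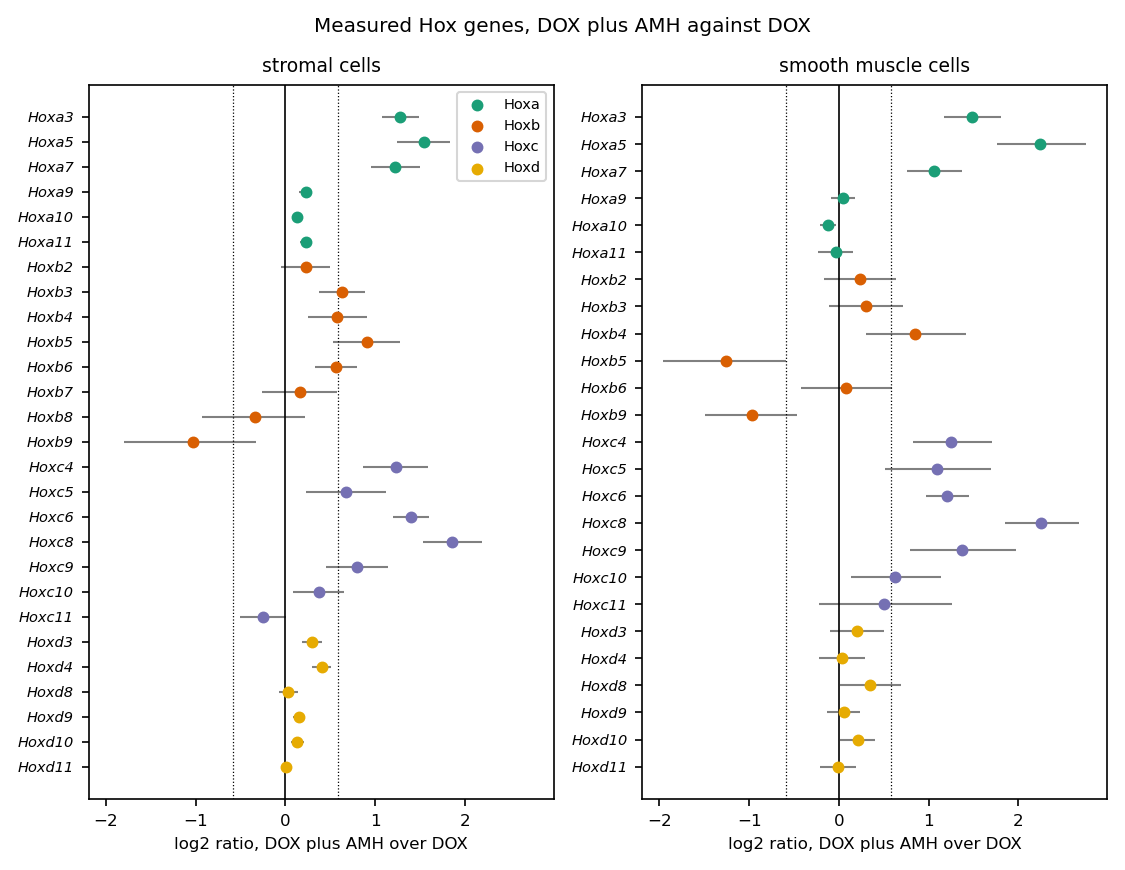
Log2 ratio of CPM, DOX plus AMH over DOX (horizontal axis), of each measured Hox gene in stromal and smooth muscle cells. Points are coloured by cluster, bars are 95% intervals of counting error, and dotted lines mark 1.5-fold. Hoxa3 to Hoxa7 and Hoxc4 to Hoxc9 lie right of the dotted line in both classes, and all 6 Hoxd genes lie between the lines.

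The difference was uneven among cell clusters, which were made without Hox genes. Clusters with at least 50 cells of a class in both libraries were looked at after the class values had been seen. This left out cluster 9 (0 cells in DOX plus AMH and 70 in DOX) and cluster 23 (27 and 242), both highest for stromal markers. Stromal cells assigned to no marker subset numbered 1161 in DOX plus AMH and 916 in DOX. The part of this difference in stromal makeup in the stromal ratios was not tested. In smooth muscle, cluster 14 (495 cells in DOX plus AMH and 436 in DOX, led by Gata6, Zfpm2, Bche and Scx) held 12 of 24 measured members that were at least 1.5-fold higher, against 11.9% of all genes. Hoxd3 (log2 ratio 0.76) and Hoxd8 (1.05) were among the higher ones there, and Hoxb5 (-1.28) and Hoxb9 (-0.99) were lower. Hoxc8 in cluster 14 stood at 54.4 CPM in DOX plus AMH and 10.7 CPM in DOX, and Hoxa5 at 31.5 and 3.98 CPM. In cluster 0 of smooth muscle (85 and 79 cells, led by Rergl, Hpse2, AW011738 and Dgkg) 0 of 4 were higher, against 9.19% of genes. In cluster 12 (543 and 413 cells, led by Coch, Trhde, Tnni2 and Acta1) 3 of 15 were higher, against 8.65% of genes. Hoxc8 stood there at 1.94 CPM in DOX plus AMH and 0.695 CPM in DOX, and Hoxa5 at 7.96 and 3.71 CPM.

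Hoxa10 ran the other way across the same clusters. In cluster 12 it stood at 284 CPM in DOX plus AMH and 312 CPM in DOX, and in cluster 14 at 104 and 129 CPM.

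Stromal clusters divided likewise. In cluster 10 (545 cells in DOX plus AMH and 628 in DOX, led by Gucy1a1, Fmo2, Plekha6 and Prlr) 14 of 22 measured members were higher, against 12.5% of genes. Hoxc8 stood there at 16.8 CPM in DOX plus AMH and 2.26 CPM in DOX. In cluster 13 (153 and 443 cells, led by Il6, Ccl5 and Cxcl1) 11 of 23 were higher, against 12.0% of genes, and in cluster 3 (381 and 327 cells, with Epha6 and Unc5d among its leading genes) 7 of 16, against 11.7%. Hoxd3 (0.96) and Hoxd4 (0.64) were among the higher members in cluster 10 and Hoxa9 (0.73) in cluster 3. Hoxa5 in cluster 3 stood at 19.2 CPM in DOX plus AMH and 2.64 CPM in DOX. In clusters 1, 2 and 4 the numbers were 0 of 11, 1 of 12 and 1 of 9, against 8.28%, 10.1% and 10.6% of genes. In cluster 17, the stroma with the highest Hoxa10 (383 CPM in DOX plus AMH and 362 CPM in DOX), 6 of 19 were higher, against 8.62% of genes, while Hoxc8 was lower (-0.66), as was Hoxc11 in cluster 1 (-0.61).

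**Figure D5:**
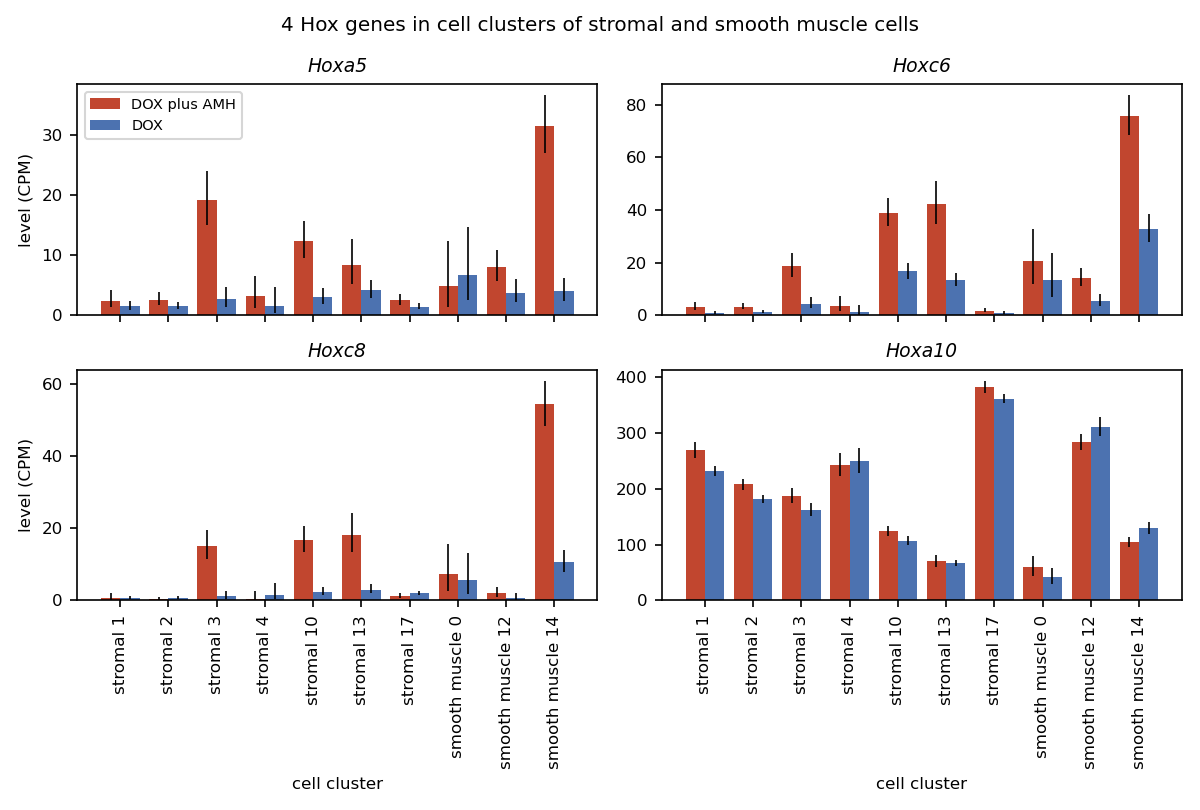
Levels (CPM) of Hoxa5, Hoxc6, Hoxc8 and Hoxa10 in cell clusters of stromal and smooth muscle cells with at least 50 cells in both libraries, with DOX plus AMH and DOX as paired bars and 95% intervals of counting error. Hoxc8 in DOX plus AMH is tallest in smooth muscle cluster 14 at 54.4 CPM, against 10.7 CPM in DOX, while Hoxa10 is tallest in stromal cluster 17.

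Subsets defined by markers also differed in their counts. In stromal cells with matrix fibroblast markers 13 of 27 measured members were at least 1.5-fold higher in DOX plus AMH, against 11.1% of genes. In those with endometrial stroma markers 7 of 19 were, against 8.56%, in Slc26a7 stroma 4 of 18, against 9.37%, and in stroma assigned to no subset 8 of 22, against 9.21%. In smooth muscle of the Acta1 subset 5 of 16 were higher, against 8.46%, and in smooth muscle with 1 marker of that subset 12 of 24, against 11.5%. Smooth muscle cells without any marker of the Acta1 subset (122 in DOX plus AMH and 89 in DOX) had the highest levels of Hoxa3, Hoxa5 and Hoxc8 in DOX plus AMH among the 3 smooth muscle subsets. There Hoxc8 stood at 91.5 CPM in DOX plus AMH and 5.76 CPM in DOX, Hoxa5 at 59.2 and 5.76 CPM, and Hoxa3 at 74.9 and 16.1 CPM. In these cells 6 of 9 measured members were higher, against 725 of 5579 genes. Hoxa9, not 1.5-fold apart over all smooth muscle, was among them at 64.5 CPM in DOX plus AMH and 23.0 CPM in DOX (log2 ratio 1.49, interval 0.76 to 2.28). Hoxa10 stood at 43.6 CPM in these cells of DOX plus AMH and 57.6 CPM in those of DOX.

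Hoxc6, Hoxc8 and Hoxa5, which were among the members higher in DOX plus AMH, were looked for in the same cells. Hoxc6 and Hoxc8 both overlap Hoxc5 on the same strand, and cell clusters with different levels of these genes were pooled. The part of either in the shares below was not tested. Cells were thinned to 5000 UMIs and divided by a UMI of Hoxc6. In smooth muscle of DOX plus AMH, 18.9% of 159 cells with Hoxc6 held Hoxc8 (interval 13.1% to 25.8%) and 3.33% of 870 cells without it (2.24% to 4.75%). For Hoxa5, which lies on another chromosome, the shares were 21.4% with Hoxc6 and 3.56% without. Hoxa10 was found in 35.2% of the cells with Hoxc6 and 56.4% of those without.

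In smooth muscle of DOX the same shares were 9.76% of 82 cells with Hoxc6 and 2.12% of 803 without for Hoxc8, 2.44% and 2.74% for Hoxa5, and 51.2% and 53.9% for Hoxa10. In stroma of DOX plus AMH Hoxc8 was found in 13.3% of 181 cells with Hoxc6 and 1.44% of 3254 without, and Hoxa10 in 45.9% and 63.8%. In stroma of DOX Hoxc8 was found in 0 of 110 cells with Hoxc6 and 0.783% of 4726 without. In 110 cells a finding of 0 cannot be told apart from a share of 0.783%.

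Markers of other cells also moved between the libraries in these classes. The summed level of the 8 squamous markers was 62.8 CPM in stroma of DOX plus AMH and 4.12 CPM in that of DOX, and 49.2 and 1.13 CPM in smooth muscle. The 4 erythroid markers stood at 73.9 CPM in stroma of DOX plus AMH and 11.5 CPM in that of DOX, and at 80.0 and 13.9 CPM in smooth muscle. The mesothelial list, whose cells hold much Hoxc6 and Hoxc8, stood at 16.5 CPM in stroma of DOX plus AMH and 12.3 CPM in that of DOX. In smooth muscle it stood at 2.24 CPM in DOX plus AMH and 1.70 CPM in DOX. In squamous cells of DOX plus AMH Hoxa3 stood at 0.863 CPM, Hoxa5 at 0.518 CPM, Hoxa7 at 0.431 CPM, Hoxc6 at 0.345 CPM and Hoxc8 at 0.0863 CPM. The part of these markers' cells in the Hox differences was not tested.

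In columnar epithelium none of 11 measured members was 1.5-fold apart, against 9.23% of genes higher and 4.28% lower. The highest log2 ratios were 0.47 for Hoxb2, 0.38 for Hoxb9 and 0.24 for Hoxb8, and the lowest -0.22 for Hoxd10, -0.16 for Hoxa10 and -0.04 for Hoxb7. Hoxb6, the leading gene, had 0.00 (interval -0.10 to 0.11). The squamous markers in this class summed to 1013 CPM in DOX plus AMH and 32.6 CPM in DOX.

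In vascular endothelium 2 of 18 measured members were higher, against 5.82% of genes, and 3 lower, against 8.55%. The highest were Hoxd10 at 54.1 CPM in DOX plus AMH and 30.6 CPM in DOX (log2 ratio 0.82), Hoxd3 (0.74) and Hoxb7 (0.45). The lowest were Hoxb2 at 10.9 CPM in DOX plus AMH and 19.4 CPM in DOX (-0.83), Hoxa10 (-0.81) and Hoxd11 (-0.63). In vascular endothelium the 6 stromal markers summed to 1050 CPM in DOX plus AMH and 2964 CPM in DOX, the 8 columnar epithelial markers to 24.7 and 274 CPM, and the 7 pericyte markers to 442 and 757 CPM. A cell cluster that scored highest for endothelial markers held 1 cell of DOX plus AMH and 40 of DOX. Their part in these ratios was not tested. In pericytes 3 of 9 were higher, against 9.67% of genes, and 0 lower, against 7.28%. The highest were Hoxd10 (0.90), Hoxd4 (0.77) and Hoxd3 (0.75), and the lowest Hoxa9 (-0.41), Hoxd8 (-0.20) and Hoxa10 (-0.05). The interval of Hoxd3 in pericytes, -0.12 to 1.68, included 0.

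In mesothelium 5 of 16 measured members were lower in DOX plus AMH, against 16.3% of genes, and 2 higher, against 8.32%. Hoxa10 stood at 27.0 CPM in DOX plus AMH and 64.8 CPM in DOX (log2 ratio -1.26, interval -1.71 to -0.83). Hoxd9 had -1.27, Hoxd10 -1.05 and Hoxd11 -0.97. The other lower member was Hoxb6 (-0.61), whose interval of -1.31 to 0.08 included 0. The highest were Hoxc10 (0.82), Hoxc9 (0.75) and Hoxa5 (0.54). Smooth muscle markers in this class summed to 90.1 CPM in DOX plus AMH and 411 CPM in DOX, and macrophage markers to 29.8 and 221 CPM. The part of these markers' cells in the lower values was not tested. The part of stromal RNA was not tested either. Hoxa10, Hoxd9, Hoxd10 and Hoxd11 were among the highest Hox genes of stroma in both libraries. In macrophages Hoxa10 alone was measured, at a log2 ratio of -0.34 (-0.98 to 0.28), with 13.8% of genes higher and 8.67% lower.

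Of the 9 TALE cofactors, homeodomain proteins that bind DNA together with Hox proteins, all were measured in stroma and in smooth muscle. None was 1.5-fold apart in either. Over all genes 11.0% were higher and 4.63% lower in stroma, and 8.35% and 5.41% in smooth muscle. In stroma Meis1 (log2 ratio 0.38) and Meis2 (0.36) were highest, and Pbx4 (-0.06) and Pbx3 (-0.46) lowest.

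Of the 20 chromatin regulators of Hox clusters 1 was higher in stroma, against 11.0% of all genes, and 4 of 19 in smooth muscle, against 8.35%. The stromal one was Cbx7, a Polycomb subunit that binds the repressive histone mark of silent Hox genes. It stood at 12.2 CPM in DOX plus AMH and 5.21 CPM in DOX (log2 ratio 1.23, interval 1.04 to 1.43). Cbx8 followed at 0.53, and Eed (-0.26) and Ezh2 (-0.06) were lowest.

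Of 15 noncoding RNAs of the clusters 4 were not used here, and 9 of the other 11 were measured in stroma, of which 3 were at least 1.5-fold higher and 0 lower, against 11.0% and 4.63% of all genes. In smooth muscle 2 of 6 were higher and 1 lower, against 8.35% and 5.41%. Their UMIs may be shared with coding neighbours. In stroma Hoxaas2 had a log2 ratio of 1.63, from 31 UMIs in DOX plus AMH and 19 in DOX. Hoxaas3, which is transcribed within the Hoxa cluster, had 1.26 in stroma (4.03 CPM in DOX plus AMH and 1.68 CPM in DOX). The lowest in stroma were Hoxa11os, antisense to Hoxa11, at 70.0 CPM in DOX plus AMH and 68.8 CPM in DOX (0.03), and Hoxb5os (0.09).

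Of 10 genes of caudal and cloacal mesenchyme 5 were measured in stroma and 2 were higher, against 11.0% of all genes, among them Eya1 (1.22), a transcriptional coactivator needed for kidney development. In smooth muscle 2 of 4 were higher, against 8.35%. The lowest in stroma were Tbx2 (0.33) and Sall1 (0.29). Of 13 genes of the retinoic acid response 11 were measured in stroma and 4 were higher, against 11.0%, and in smooth muscle 1 of 7, against 8.35%. The stromal values were led by the binding protein Crabp2 (1.61) and the retinoic acid synthesising enzyme Aldh1a3 (0.93). The lowest of that list in stroma were Crabp1 (-0.06) and Aldh1a2 (-0.44).

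Of 18 reproductive tract patterning genes 16 were measured in stroma, with 0 higher and 4 lower, against 11.0% and 4.63% of all genes. In smooth muscle 3 of 11 were higher and 1 lower, against 8.35% and 5.41%, with a median log2 ratio of 0.45, against -0.03 in stroma. The lowest in stroma were Pax2 (-1.03) and Wnt7a (-0.96), both under 1 CPM there, and the highest were Satb1 (0.48) and the oestrogen receptor gene Esr1 (0.31). Of 12 proposed targets of Hoxa10 and Hoxa11 10 were measured in stroma, with 1 higher and 2 lower, against 11.0% and 4.63% of genes. The higher one was Bmp2 (0.64), and the lower ones were Bcl6b (-1.03) and Lif (-0.82). In smooth muscle 1 of 8 was higher and 1 lower, against 8.35% and 5.41%. Npas2 (0.54) was the second highest in stroma. Of 5 Cdx genes and rivals 2 were measured in stroma, Hmgb1 (0.03) and Gmnn (-1.00), with 0 higher and 1 lower, against 11.0% and 4.63%. In smooth muscle 0 of 2 were higher and 1 lower, against 8.35% and 5.41%.

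Genes whose levels were most like those of Hoxa10 and Hoxa11 were ranked by Pearson's r of log2(CPM + 1) over 14 points, 7 classes in 2 libraries that share their cells' depth and free RNA. For Hoxa10 they were Hoxa11 (0.98), Clip3 (0.97), Fam171b (0.96), Zfp354c (0.96) and Hgf (0.95). For Hoxa11 they were Hoxa10 (0.98), Stmnd1 (0.97), Pamr1 (0.97), Mmp16 (0.96) and Tmem196 (0.96). Hoxa13 was too low in every class for such a ranking.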

How the data were processed

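Per the labels' protocols, uteri of 5 animals per group were pooled, dissociated, and made into 1 droplet library each with 10x Genomics 3' chemistry. The submitters' processing notes name Cell Ranger 7.0.0 and the build mm10, and the values the authors deposited are unnormalized UMI counts, 1 whole number for each gene in each cell barcode. Whether intronic reads or strand were counted is not given in the sources used here.

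Cells with at least 1000 UMIs, 500 genes and at most 15% mitochondrial UMIs were kept. Since the automatic thresholds of Scrublet (scanpy 1.11.5) were 0.598 in DOX plus AMH and 0.191 in DOX, a fixed score of 0.2 was chosen after seeing the data. It removed 4.63% of cells in DOX plus AMH and 4.52% in DOX.

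A cell joined the class whose markers had the highest mean score, from 0.3 upwards, with a lead of 0.1 and 3 markers detected. Leiden clusters (resolution 1, igraph 0.11.9) were built without Hox genes. Counts were summed per class and library, scaled to CPM over all genes, and given exact Poisson, binomial or binomial-split 95% intervals. Only the binomial-split intervals, those of the ratios, were tested on simulated counts. TMM factors came from edgeR 4.0.16.

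Members at 5 CPM or more in a compared class are described by level. Ratios are given for members with at least 50 UMIs in a class, all of them in stroma and smooth muscle and the highest and lowest 3 elsewhere. The 2 highest and 2 lowest genes of each list are named, apart from a few genes not reported here, with the 5 genes most like Hoxa10, Hoxa11 and Hoxa13 among those at 20 CPM or more, a ranking not made for Hoxa13, which was too low. The members, the lists and the markers were chosen with earlier results of these data known. Alternatives were other cell filters, doublets kept, a stricter gate, Leiden classes, other scalings, other thresholds, and stroma without dividing cells.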

Additional observations from a re-analysis of the deposited data

Results flagged for a closer look

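In 10 pairings of cell classes the log2 ratio of a Hox gene, DOX plus AMH over DOX, lay above 0 in a class and below 0 in the other, with both counting intervals clear of 0. None of these differences was tested, since there is 1 library per group.

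Hoxb5 had 0.91 in stroma and -1.26 in smooth muscle. Hoxb2 had 0.47 in columnar epithelium and -0.83 in vascular endothelium. Hoxa10 had 0.13 in stroma, against -0.12 in smooth muscle, -0.81 in vascular endothelium and -1.26 in mesothelium. Hoxd9 had 0.15 in stroma and -1.27 in mesothelium. Hoxd10 had -1.05 in mesothelium, against 0.13 in stroma, 0.21 in smooth muscle, 0.82 in vascular endothelium and 0.90 in pericytes. With TMM scaling the stromal ratios of Hoxa10 (-0.06), Hoxd9 (-0.04) and Hoxd10 (-0.06) were below 0, so their contrast with the other classes in sign rests on the scaling.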

How the results depend on the processing

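No paired analysis was possible because each group has 1 library and the labels give no shared replicate. With a fold of 2 in place of 1.5, the Hox genes higher in DOX plus AMH numbered 6 in stroma and those lower 1 in smooth muscle. With 200 UMIs asked for, 6 were higher in smooth muscle and 0 were lower in smooth muscle and in stroma, where 9 were higher. Leiden classes gave 2 lower in stroma. All other alternatives kept the counts within 1.5 times, from 8 to 14 higher in stroma and 8 to 14 in smooth muscle. The shares of all genes called under these settings are not given here. These counts were therefore not set against the rest of the genes. The Hoxb share of columnar epithelium in DOX plus AMH was 95.4% with doublets kept, 96.8% with the stricter gate and 96.7% with Leiden classes, and the stromal share of paralogues 9 to 11 was 79.6% with doublets kept. The difference in the share of stromal cells with a paralogue 13 UMI was 0.04 percentage points at 2000 UMIs per cell and -0.17 without thinning. The cause of the shifts with Leiden classes, doublets kept, the stricter gate and no thinning was not tested. No called member changed sign under any of the 8 alternatives to filters, gates and scaling. Of the 11 members called in stroma 9 stayed past 1.5-fold in all 8, and of the 12 in smooth muscle 11. The median log2 ratio of the members ran from 0.17 to 0.44 in stroma and from 0.18 to 0.38 in smooth muscle.

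Intervals hold no spread between animals, pools or cells. Genes under 5 CPM rest on few UMIs, and a difference in paralogues 12 and 13 was not detectable at this depth.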
